A study of Arabidopsis thaliana with 4 samples.

Results

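The chloroplast genome carries genes for the core subunits of the photosynthetic machinery, and 43 of these genes are described here in seedlings of Arabidopsis thaliana with and without the add3 mutation. The genes were taken from a list of 44 symbols. The list covers photosystem I (psa), photosystem II (psb), the cytochrome b6f complex (pet), ATP synthase (atp), the large subunit of Rubisco (rbcL) and the NDH complex (ndh). A gene was kept where the annotation of the array assigned a probe set to that plastid gene alone, which held for 43 of the 22746 non-control probe sets. Each kept gene had 1 probe set, so no choice between probe sets was needed. The remaining symbol, ndhB, lies in the inverted repeat of the plastid genome, and its probe set was annotated to both copies, so it was not analysed here. RNA came from 2 add3 samples and 2 wild-type samples, each hybridised to 1 Affymetrix ATH1 array. The add3 (ARRESTED DEVELOPMENT 3) group was an EMS mutant with the genetic background Col-3 gl1, a background that lacks leaf hairs. Col-0 plants served as wild type, and the effects of the mutation and of the background cannot be told apart. Both groups were grown at 29 °C in continuous light (24 h) on peat mix after 4 days at 4 °C and were collected at stage 1.02, with hypocotyls, cotyledons, meristems and the first true leaves and primordia in the sample. Nothing in the labels says whether replicates were separate plantings, and the p-values cover the spread among these 4 samples alone, part or all of which may be technical.

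Plastid genes are arranged in operons, and most photosynthesis genes are transcribed by a bacterial-type plastid-encoded RNA polymerase that uses nuclear-encoded sigma factors. Long primary transcripts are then cut, trimmed and protected by nuclear-encoded RNA-binding proteins, so genes of one operon can still differ in the level of their mature transcripts. Photosystem II splits water, the cytochrome b6f complex passes electrons on to photosystem I, and ATP synthase uses the proton gradient that results. The NDH complex returns electrons from ferredoxin to the plastoquinone pool.

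The values are MAS5 signals, a brightness per probe set on a linear scale, with each array scaled as a whole. The brightness of different probe sets does not show which transcript is more abundant, so every test compared a gene with itself across arrays. Ratios of 2 genes on an array are given below only to be compared between arrays. All 43 genes lay above the background level of bacterial control probe sets (12.3 to 25.4) on all 4 arrays, with signals from 127 to 5509. All passed the filter on low signals, a mean of at least 33.2. Of the genes chosen to check the labelled tissue, the annotation gave single-gene probe sets for a single shoot marker and a single root marker. RCA, the Rubisco activase gene of green tissue, had signals of 3086 and 3537 in add3 and 3521 and 3068 in wild type. BGLU23 (PYK10), a glucosidase gene best known from roots and also active in hypocotyls, had signals of 2511 and 2571 against 2034 and 2032, so it was well above background in all samples. In whole tissue, fewer cells of a type and less RNA per cell cannot be told apart.

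The 4 genes of the psbE operon fell in add3, and no gene of the 43 rose past the threshold. Differences were tested with limma on the log2 scale, after a small constant was added to each signal, over 13648 probe sets with Benjamini-Hochberg adjustment and a threshold of 0.05 on the adjusted p. In this test 5 of the 43 genes were lower in the mutant, namely psbE, psbF, psbL, psbJ and ndhG, and 38 did not pass the threshold. The share of lower calls was 11.6% for the 43 genes and 3.14% over all probe sets tested, and that of higher calls was 0% against 4.17%. Of the 5 lower calls 4 came from the psbE operon, and genes of an operon can share transcripts, so these calls need not be separate observations. The median log2 difference (mutant minus wild type) was -0.19 for the 43 genes and -0.05 over all probe sets tested. Outside the psbE operon 1 of 39 genes was called lower, or 2.56%, and the median was -0.17. That share is near the one over all probe sets, but leaving out 4 called genes lowers it by construction.

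Both mutant signals lay below both wild-type signals for 20 of the 43 genes (46.5%), against 32.3% of all probe sets tested. Outside the psbE operon this held for 16 of 39 genes (41.0%). Both mutant signals lay above both wild-type signals for 1 gene, psbK, against 24.8% of all probe sets. For the other 22 genes the groups overlapped. When each array was scaled to the same median signal, the calls over all probe sets moved from 428 lower and 569 higher to 319 lower and 937 higher. On that scale 4 of the 43 genes, those of the psbE operon, were lower and none was higher, and the median of the 43 genes moved to -0.09. The median over all probe sets tested moved as well, from -0.05 to 0.04. When dim probe sets were not filtered out, limma called none of the 43 genes (8 had an unadjusted p under 0.05), and the psbE operon genes had adjusted p-values of 0.0517 to 0.0773. In that fit 4143 of all 22746 probe sets had an unadjusted limma p under 0.05.

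**Figure D1:**
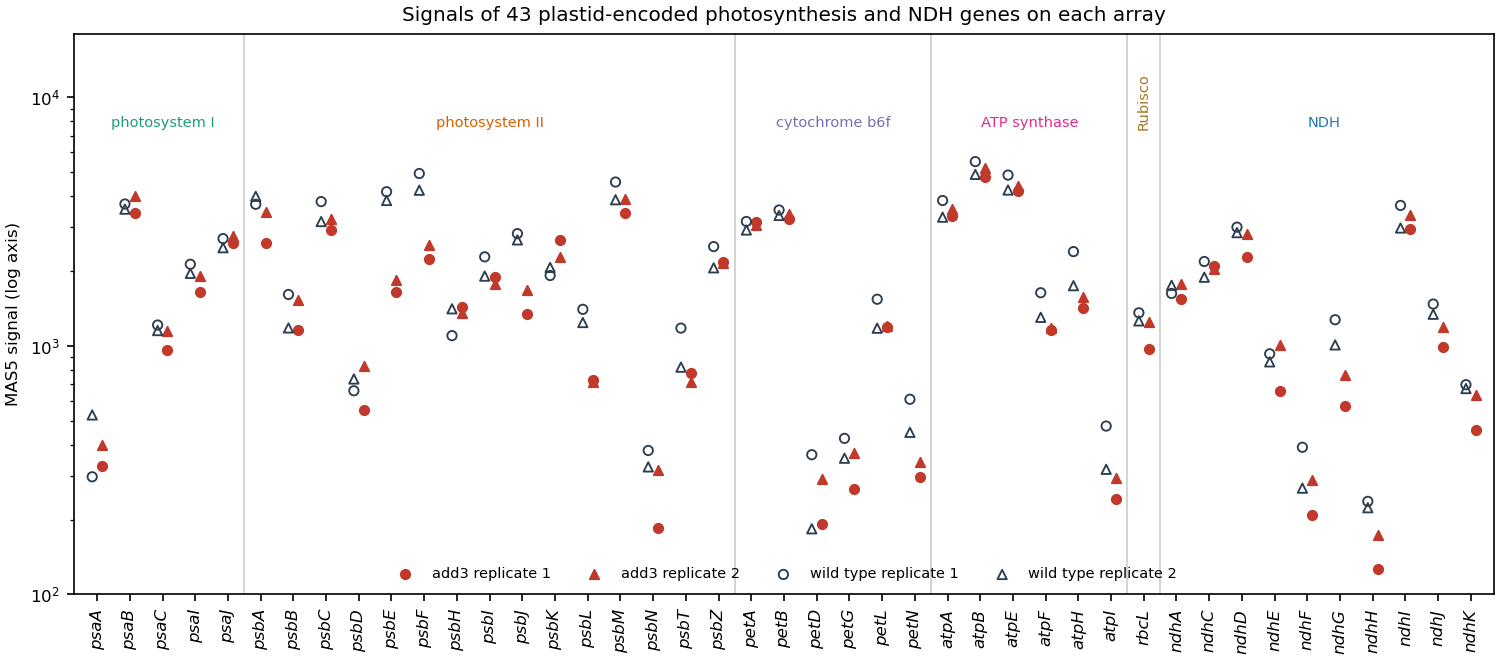
MAS5 signal (log axis) of each of the 43 genes, grouped by protein complex. Filled red symbols are add3 and open dark symbols wild type, circles are replicate 1 and triangles replicate 2. The groups stand farthest apart for psbE, psbF, psbL and psbJ, while most other genes have mutant and wild-type points close together or mixed.

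Photosystem II contains cytochrome b559, a haem protein of the reaction centre whose alpha and beta chains are encoded by psbE and psbF. The psbE signals were 1642 and 1841 in add3 and 4168 and 3842 in wild type. Each mutant value was under the lower wild-type value by more than the gap between replicates of either group. The psbE mean was 56.5% lower in the mutant, with a log2 difference of -1.20 (SE 0.11, limma adjusted p = 0.00713).

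The psbF signals were 2234 and 2541 in add3 and 4933 and 4226 in wild type. The groups did not overlap, and the log2 difference was -0.93 (SE 0.12, limma adjusted p = 0.0125). The operon goes on with psbL and psbJ, which encode small membrane subunits of photosystem II. The psbL signals were 727 and 715 in add3 and 1402 and 1241 in wild type. Its replicates lay close together in the mutant, and the log2 difference was -0.86 (SE 0.12, limma adjusted p = 0.0130). The psbJ signals were 1348 and 1669 in add3 and 2827 and 2667 in wild type. The groups were again apart, with a log2 difference of -0.87 (SE 0.13, limma adjusted p = 0.0161). Over the 4 genes and the 4 pairs of a mutant with a wild-type array, log2 differences ran from -1.34 to -0.67. Replicates of these genes differed by 0.31 at most. The call of psbJ was lost without add3 replicate 1 (limma adjusted p = 0.0526), where its log2 difference was -0.71.

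The neighbours of this operon on the plastid genome gave other values. On one side lies petA, the gene for cytochrome f. Its signals were 3144 and 3069 in add3 and 3163 and 2924 in wild type, a log2 difference of 0.03 (SE 0.10, limma adjusted p = 0.875). On the other side lie petL and petG, which encode small subunits of the cytochrome b6f complex. The petL signals were 1192 and 1206 in add3 and 1540 and 1177 in wild type, so the groups overlapped. A ratio of 2 signals on the same array does not depend on how the array was scaled. The ratio of psbE to petA was 0.522 and 0.600 in add3 and 1.32 and 1.31 in wild type. For psbF it was 0.710 and 0.828 against 1.56 and 1.45, for psbL 0.231 and 0.233 against 0.443 and 0.424, and for psbJ 0.429 and 0.544 against 0.894 and 0.912. All 4 ratios were lower on both mutant arrays than on both wild-type arrays. The mean log2 signal of the operon, less the median of the other 39 genes, was -0.04 and 0.01 in add3 and 0.88 and 0.94 in wild type. These ratios and means describe the arrays that gave the calls and are no separate support for them.

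**Figure D2:**
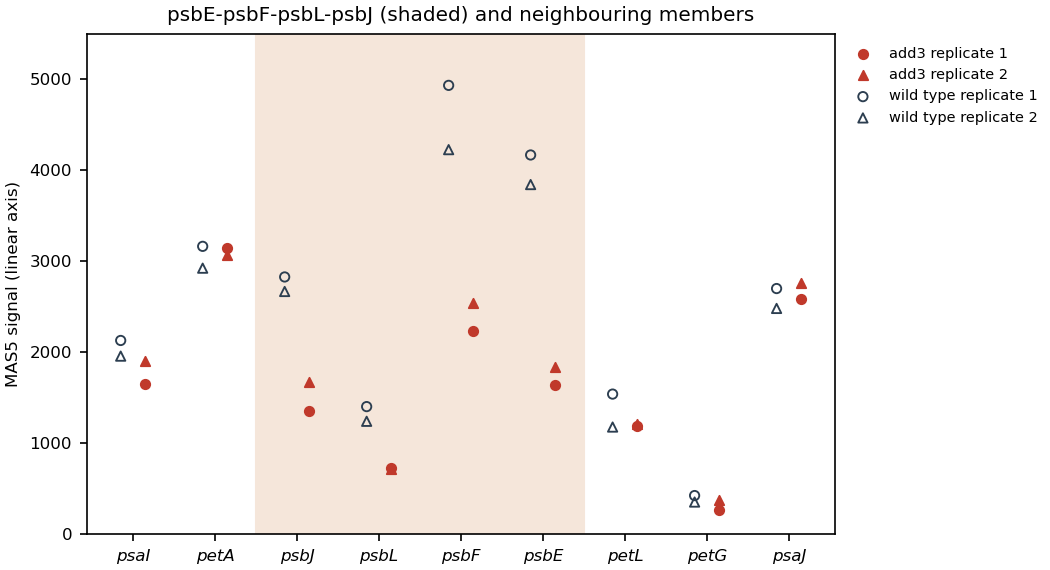
MAS5 signal (linear axis) of the psbE operon (shaded) and of members on either side, in genome order. Filled red symbols are add3 and open dark symbols wild type. The mutant points lie below the wild-type points for psbJ, psbL, psbF and psbE, and by a narrow margin for psaI. Mutant and wild-type points overlap for petA, petL, petG and psaJ.

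The other 11 photosystem II genes had log2 differences from -0.51 to 0.30 (median -0.17), and none passed the threshold. D1, the reaction-centre protein that is replaced most often in the light, is encoded by psbA. The psbA signals were 2603 and 3469 in add3 and 3709 and 3993 in wild type. The groups did not overlap, but add3 replicate 1 lay farther from its fellow replicate than that replicate lay from wild type, and the log2 difference of -0.36 (SE 0.15) had a limma adjusted p of 0.18. D2 and the inner antenna protein CP43 are encoded by psbD and psbC. The psbD signals were 551 and 829 in add3 and 660 and 735 in wild type, and the mutant samples lay on either side of the wild-type ones. The psbC signals were 2910 and 3240 in add3 and 3803 and 3161 in wild type, with a log2 difference of -0.17. CP47, the other inner antenna protein, is encoded by psbB, and its signals were 1158 and 1526 in add3 and 1609 and 1180 in wild type. Its groups overlapped almost fully (log2 difference -0.05).

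Of the small photosystem II subunits, psbK was the gene with the highest estimate of all 43. Its signals were 2653 and 2267 in add3 and 1918 and 2066 in wild type. The mutant values were the higher ones, but the log2 difference of 0.30 (SE 0.12) had a limma adjusted p of 0.165. Its operon partner psbI had signals of 1885 and 1777 in add3 and 2279 and 1907 in wild type, a log2 difference of -0.19. The signals of psbM were 3417 and 3879 in add3 and 4559 and 3869 in wild type, and the groups overlapped by a narrow margin (log2 difference -0.21). For psbN, which encodes an assembly factor of photosystem II, they were 185 and 317 against 379 and 326. Its estimate of -0.51 (SE 0.23, limma adjusted p = 0.218) rested mainly on add3 replicate 1. The remaining small subunits gave -0.39 for psbT, -0.07 for psbZ and 0.16 for psbH.

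The 5 photosystem I genes had log2 differences between -0.20 and 0.04, and none passed the threshold. The reaction-centre heterodimer is encoded by psaA and psaB. The psaB signals were 3419 and 4005 in add3 and 3719 and 3546 in wild type, and the mutant samples lay on either side of the wild-type ones (log2 difference 0.03, SE 0.11). The psaA signals were 327 and 398 in add3 and 297 and 527 in wild type. Here the wild-type replicates differed more than the groups did. The small subunit gene psaI gave the lowest value of this complex, with signals of 1648 and 1908 in add3 and 2129 and 1957 in wild type. The groups were apart, but the log2 difference of -0.20 (SE 0.12) had a limma adjusted p of 0.328. The highest was psaJ, another small subunit gene, with signals of 2583 and 2759 in add3 and 2700 and 2481 in wild type, which overlapped. The gene for the subunit that carries the terminal iron-sulphur clusters, psaC, had signals of 966 and 1147 in add3 and 1212 and 1152 in wild type (log2 difference -0.17).

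Of the 6 cytochrome b6f genes, petN came nearest to the threshold. It encodes a small subunit, and its signals were 296 and 341 in add3 and 610 and 449 in wild type. The groups did not overlap, but the wild-type samples lay far from each other, and the log2 difference of -0.70 (SE 0.17) had a limma adjusted p of 0.0532. It passed without wild-type replicate 2 (0.0298) and with a filter at the 60th percentile of the mean signal (0.0439). It moved away from the threshold without wild-type replicate 1 (log2 difference -0.48, limma adjusted p = 0.123), without add3 replicate 1 (0.160) and with no filter (0.128). The gene for cytochrome b6, petB, had signals of 3238 and 3396 in add3 and 3518 and 3344 in wild type. All 4 values lay within a narrow range, with a log2 difference of -0.05 (SE 0.10). Subunit IV is encoded by petD, whose signals were 193 and 291 in add3 and 365 and 184 in wild type. The spread within each group exceeded the difference of -0.12 (SE 0.31). The petG signals were 266 and 371 in add3 and 424 and 353 in wild type, and the groups overlapped.

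All 6 ATP synthase genes had estimates below 0 with the scaling of the authors, between -0.53 and -0.05 in log2 difference, and none passed the threshold. Those of atpA, atpB and atpE, the genes for the alpha, beta and epsilon subunits of the catalytic part, were nearest to 0. The atpB signals were 4770 and 5173 in add3 and 5509 and 4893 in wild type, which overlapped (log2 difference -0.06, SE 0.11). The atpA signals were 3326 and 3544 against 3841 and 3293, and those of atpE 4177 and 4380 against 4862 and 4234, again with overlap. After scaling to equal medians, the estimates of atpA, atpB and atpE changed sign to 0.05, 0.04 and 0.01. The 3 genes for the membrane part gave lower values. The a subunit gene atpI had signals of 241 and 295 in add3 and 476 and 319 in wild type (log2 difference -0.53, SE 0.20, limma adjusted p = 0.154). The gene for the c subunit of the rotating ring, atpH, had signals of 1418 and 1565 in add3 and 2393 and 1745 in wild type (log2 difference -0.45, SE 0.16, limma adjusted p = 0.132). For both genes the groups were apart, with wild-type replicate 1 the highest sample by far. Both passed the threshold without wild-type replicate 2 (limma adjusted p = 0.0459 for atpI and 0.0320 for atpH). Without wild-type replicate 1 the log2 differences were -0.25 for atpI (limma adjusted p = 0.412) and -0.23 for atpH (0.279). The b subunit gene atpF gave -0.31 (SE 0.13).

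The large subunit of Rubisco, the enzyme that fixes carbon dioxide, is encoded by rbcL. Its signals were 973 and 1250 in add3 and 1358 and 1260 in wild type. The groups were apart by a narrow margin, since add3 replicate 2 lay just under the lower wild-type sample, and the log2 difference was -0.24 (SE 0.14, limma adjusted p = 0.327).

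Of the 10 NDH genes measured, ndhG fell. It encodes a subunit of the membrane arm, and its signals were 571 and 762 in add3 and 1273 and 1008 in wild type. The groups did not overlap, and the log2 difference was -0.77 (SE 0.18, limma adjusted p = 0.0455). This call was lost without add3 replicate 1 (limma adjusted p = 0.157), without wild-type replicate 1 (0.129), after scaling to equal medians (0.0522), without an intensity trend in the fit (0.0761), with a replicate block (0.0523) and without a filter (0.128). The gene ndhH, for a subunit of the arm outside the membrane, had signals of 127 and 173 in add3 and 237 and 223 in wild type. The groups were apart, but the log2 difference of -0.59 (SE 0.16) had a limma adjusted p of 0.0753.

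Both genes lie in an operon with ndhA, ndhI, ndhE, psaC and ndhD, whose other members gave values nearer to 0. For ndhA, a membrane-arm gene, signals were 1544 and 1776 in add3 and 1624 and 1751 in wild type. For ndhI, which encodes an iron-sulphur subunit, they were 2952 and 3372 against 3670 and 2978. In both genes the groups overlapped, and the log2 differences were -0.03 (SE 0.12) and -0.07 (SE 0.13). The membrane-arm gene ndhE had signals of 655 and 1010 in add3 and 928 and 862 in wild type, with the mutant samples on either side. The membrane-arm gene ndhD had signals of 2284 and 2806 against 3002 and 2853, a log2 difference of -0.21 with groups apart. So within this operon the estimates ran from -0.77 to -0.03. Whether its genes differ from each other was not tested.

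A second ndh operon holds ndhC, ndhK and ndhJ. The ndhC signals were 2094 and 2033 in add3 and 2183 and 1888 in wild type, the highest estimate among NDH genes at 0.02 (SE 0.11). The ndhJ signals were 986 and 1191 in add3 and 1472 and 1340 in wild type (log2 difference -0.37, SE 0.13, limma adjusted p = 0.132). For ndhK they were 460 and 633 against 698 and 673, with a log2 difference of -0.34. The groups were apart for ndhJ and ndhK and overlapped for ndhC. The remaining gene, ndhF, stands outside both operons and had signals of 209 and 287 in add3 and 391 and 268 in wild type, which overlapped.

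Read by operon, calls of all members were seen for psbE-psbF-psbL-psbJ, where 4 of 4 genes fell with a median log2 difference of -0.90. As genes of an operon can share transcripts, these 4 calls need not be separate observations. In atpI-atpH-atpF-atpA none of 4 genes was called (median -0.38), in ndhC-ndhK-ndhJ none of 3 (-0.34), and in the operon from ndhH to ndhD 1 of 7 (-0.17). In psbB-psbT-psbH-petB-petD none of 5 was called and the median was -0.05. It was -0.07 for psbD-psbC-psbZ and for atpB-atpE, and -0.05 for psaA-psaB, with none called. It was -0.17 for petL-petG-psaJ, -0.09 for psaI and petA and 0.06 for psbK-psbI, again with none called. Within photosystem II the estimates ran from -1.20 for psbE to 0.30 for psbK.

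**Figure D3:**
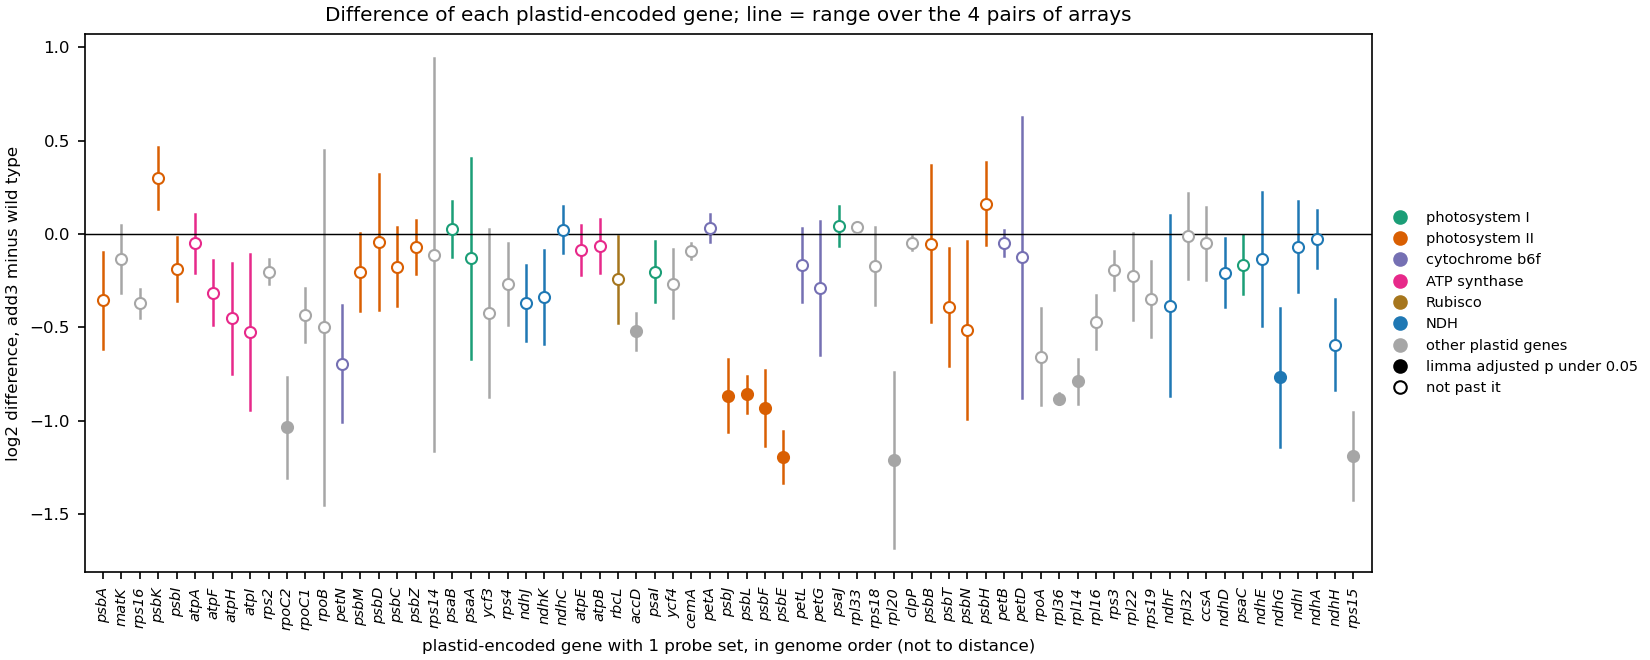
Log2 difference (mutant minus wild type) of the 69 plastid-encoded genes with a single-gene probe set, in the order of the plastid genome and not to distance. Points are the limma estimates, lines the range over the 4 pairs of a mutant and a wild-type array, and filled points have a limma adjusted p under 0.05. The 4 neighbouring genes psbJ, psbL, psbF and psbE lie at -0.86 or lower, with petA at 0.03 beside them. Outside the 43 genes, rpl20 (-1.21), rps15 (-1.19), rpoC2 (-1.04) and rpl36 (-0.88) also lie that low. The point beside rpl36, rpl14 (-0.79), is filled as well.

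The replicates of each group differed over these genes. Wild-type replicate 1 exceeded replicate 2 for 37 of the 43 genes, with a median log2 gap of 0.17. The first add3 replicate lay below the second for 35 of 43, with a median gap of -0.20. These gaps are of the size of the median difference between the groups (-0.19), while over all probe sets tested both median gaps were 0.00. Outside the psbE operon, the median difference was -0.38 between both first replicates and 0.02 between both second replicates. In that last pair 18 of the 39 genes were lower in the mutant and 21 higher. The 4 psbE operon genes were lower in every pair, with medians of -1.10, -0.95, -0.96 and -0.76. They were called on these same arrays, so this is no separate support. The difference between groups exceeded both replicate gaps for 10 of the 43 genes. These were the 4 psbE operon genes, ndhG, ndhH, ndhJ, petN and atpH with estimates below 0, and psbK with one above 0. This count was made for the 43 genes alone, so it cannot be set against the share over all probe sets.

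**Figure D4:**
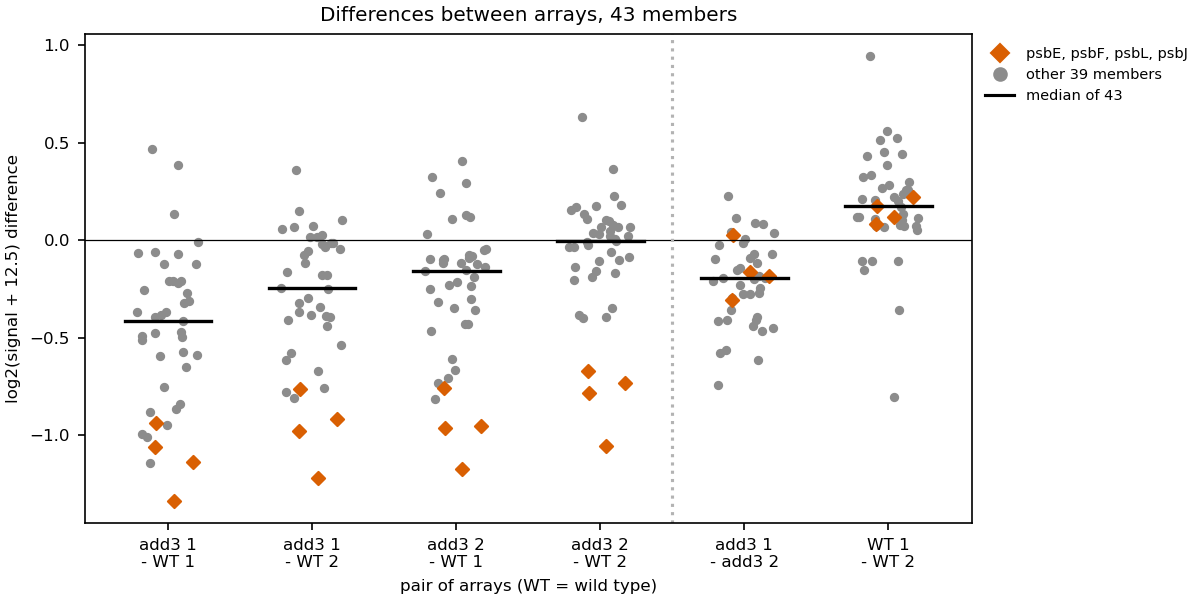
Difference in log2 signal (after a small constant was added) between pairs of arrays for the 43 genes, with the 4 comparisons of mutant with wild type left of the dotted line and the replicate gaps right of it. Black bars are medians over the 43 genes. The psbE operon genes (diamonds) stay below -0.67 in all 4 comparisons, while the bulk of the other 39 genes moves with the pair chosen, from a median of -0.38 to 0.02.

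Among the controls given here that bear on RNA quality, only the 5S ribosomal RNA signal stood apart by group. The 5S ribosomal RNA control had signals of 39.5 and 38.0 in add3 against 182 and 78 in wild type, and wild-type replicate 1 was the highest, as for most of the 43 genes. The ratio of 3′ to 5′ signal for actin was 3.10 and 3.17 in add3 against 4.49 and 2.71 in wild type, and by an older set of actin controls 5.47 and 7.18 against 5.04 and 7.23. The 25S ribosomal RNA control had signals of 43.1 and 118 in add3 against 45.7 and 105 in wild type. This control and the older actin ratio differed by replicate number and not by group. The part of these controls in the plastid results was not tested.

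Estimates also varied with the brightness of the probe set. Across all 43 genes, Spearman's rho between the log2 difference and the mean signal was 0.35. Across the 39 genes outside the psbE operon it was 0.52. Both values are descriptions over genes that share the same arrays. The 13 genes with a mean signal under 1000 had a median log2 difference of -0.38, the 11 genes between 1000 and 2000 had -0.19, and the 15 genes of 2000 and over had -0.06. The psbE operon genes, left out of these medians, had lower estimates than any of the 39, and psbF, psbE and psbJ were among the bright probe sets. Whether bright probe sets understate differences was not tested.

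**Figure D5:**
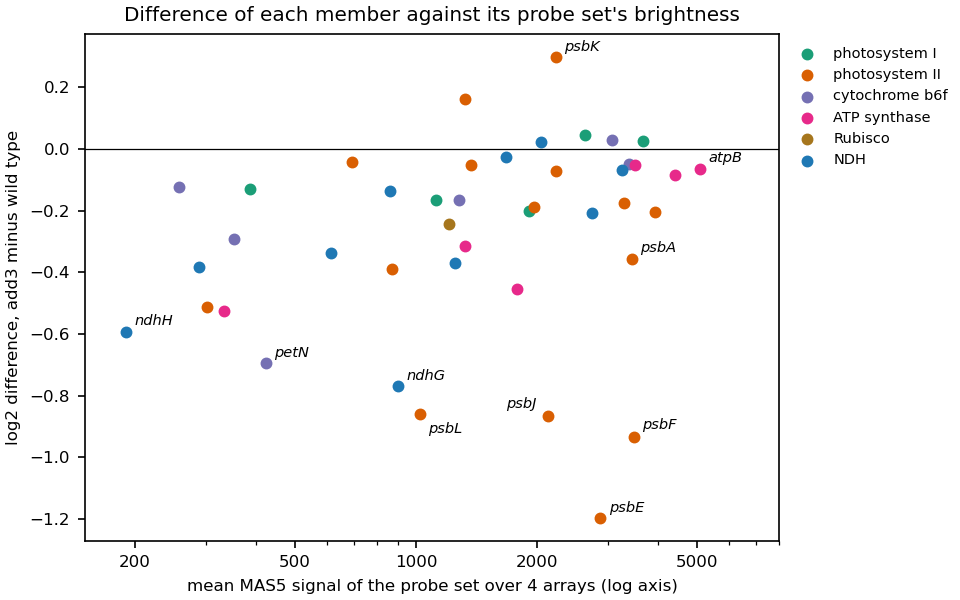
Log2 difference (mutant minus wild type) of each of the 43 genes against the mean signal of its probe set over the 4 arrays (log axis), coloured by protein complex. Bright probe sets such as atpB lie near 0 (-0.06) and dim ones such as ndhH and petN lower (-0.59 and -0.70), while psbE (-1.20) and psbF (-0.93) are bright and low.

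The complexes also contain subunits encoded in the nucleus. Of 50 such loci listed, 10 had a single-gene probe set, of which 2 rose, none fell and 8 did not pass the threshold (median log2 difference 0.33). Over all probe sets tested, 4.17% were called higher and 3.14% lower. PSBY, a small photosystem II subunit gene, had signals of 2697 and 2711 in add3 and 1588 and 1726 in wild type (log2 difference 0.70, SE 0.10, limma adjusted p = 0.0157). NDHN, an NDH subunit gene, had signals of 550 and 481 against 309 and 305 (log2 difference 0.72, SE 0.13, limma adjusted p = 0.0232). In both genes the mutant samples were the higher ones without overlap. Of the 8 genes without a call, NDHL, NDHS and PSAN had the highest estimates, at 0.45, 0.43 and 0.42. The lowest were PSBW and PETM, both at 0.12, and ATPC2 at -0.08, the only estimate below 0. The other 26 plastid-encoded genes on the array, mostly for ribosomal proteins and RNA polymerase, had a median of -0.31, and 6 fell, none rose and 20 did not pass the threshold. The share of lower calls was 23.1% for these genes, against 11.6% for the 43 genes and 3.14% over all probe sets. The lowest log2 differences were -1.21 for rpl20, -1.19 for rps15 and -1.04 for rpoC2, close to that of psbE (-1.20). Of these rps15, a ribosomal protein gene next to ndhH, had signals of 207 and 225 in add3 and 578 and 449 in wild type.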

How the data were processed

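The deposited values are MAS5 signal intensity values on a linear scale, 1 per probe set and array; MAS5 is named in the submitters' processing notes, with no version given in the sources used here. Leaving out the lowest and highest 2%, the mean deposited intensity was 100 on every array, which shows a scaling of whole arrays. From 22810 probe sets 64 controls were left out. Groups and replicate numbers came from sample titles. Probe sets were named through the platform annotation and matched by gene ID to the gene table of TAIR10.1 for names and gene order. A single gene was annotated for 13513 probe sets, more than 1 for 503 and no gene for 8730.

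Signals were turned into log2(signal + 12.5), on which fold changes of dim genes are understated. Probe sets whose mean reached the 40th percentile (13648) entered a two-sided limma fit (version 3.58.1, R 4.3.3) that used lmFit and eBayes with trend and left 2 residual degrees of freedom. The fit was tested on simulated data. Members, operons and lists were chosen with earlier results of these data known. Named with values in each sample were called members, members of their operons and, per complex, the brightest probe set and the lowest and highest estimates; further members were added to account for all. The number of arrays limits precision. Of 35 nuclear loci listed for plastid transcription and RNA stability 2 had a single-gene probe set. No flower or seed marker had one.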

Additional observations from a re-analysis of the deposited data

How the results depend on the processing

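The count was 5 genes lower and 0 higher with a median log2 difference of -0.19. No gene of the 43 was called higher by limma under any of 16 alternatives (12 had an unadjusted p under 0.05 in the fit reported, 1 of them with an estimate above 0). Over all probe sets, the unadjusted limma p was under 0.05 for 3592 of 13648 in the fit reported and for 4143 of 22746 without a filter. Without a filter on low signals 0 genes were called lower, with 8 at an unadjusted p under 0.05, and 8 lower and 5 higher calls were left over all probe sets against 428 and 569. A fit without a trend left 241 and 303. Scaling each array to the same median moved the median of the 43 genes to -0.089 and that over all probe sets from -0.047 to 0.041. Leaving out 1 array gave 3 to 9 genes lower and medians from -0.327 to -0.074: 3 and -0.074 without add3 replicate 1, 7 and -0.327 without add3 replicate 2, 4 and -0.12 without wild-type replicate 1, and 9 and -0.30 without wild-type replicate 2. With the replicate number as a replicate block 4 genes were lower, the psbE operon, and the call of ndhG was lost (limma adjusted p = 0.0523). The numbers share nothing else in the labels, and replicate gaps of the groups correlated at -0.12 over the probe sets tested. Some array controls did follow the replicate number in both groups (add3, then wild type). The 25S ribosomal RNA signal was 43.1 and 45.7 in replicate 1 against 118 and 105 in replicate 2. The background level was 25.4 and 20.5 against 12.3 and 13.0, and the older actin ratio 5.47 and 5.04 against 7.18 and 7.23. Whether the numbers mark a shared batch was not tested. With the numbers crossed, an alternative chosen after seeing the data, 9 genes were lower. Lower calls over all probe sets then rose to 859, from 428 in the fit reported. Other pseudocounts (50 and 1), quantile normalization, a filter at the 60th percentile, a fit without a trend, unique probe sets and a threshold of 0.1 gave 4 to 7. Over all probe sets these settings gave from 241 lower calls without a trend to 929 at the threshold of 0.1. None of the 5 called genes changed sign under any alternative, but most alternatives could not have changed it. Settings of filter, block, trend and threshold leave the estimates as they were. With 1 array left out, the mutant signals of these genes still lie below the wild-type ones.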

Other observations

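The 2 loci measured of those listed for plastid transcription and RNA stability were AT2G18940 and AT5G42310. The AT2G18940 signals were 105 and 117 in add3 and 44.8 and 70.0 in wild type (log2 difference 0.84, SE 0.20, limma adjusted p = 0.0484). For AT5G42310 they were 211 and 180 against 150 and 163 (log2 difference 0.30, SE 0.14, limma adjusted p = 0.223). The mutant samples were the higher ones in both.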
